A study of Mus musculus with 88 samples.

Results

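The comparison described here asks whether an activator aimed at the Fosb gene moved transcripts of the mouse nucleus accumbens differently when D1 neurons carried it than when D2 neurons did. Its members are the batch 1 libraries of D1-Cre and D2-Cre mice, 47 of the 87 libraries in the count table. A further library carries the same labels but matched no column. The D1 response is the log2 ratio of the targeted over the control guide in D1-Cre mice, the D2 response is the same ratio in D2-Cre mice, and the quantity of interest is the D1 response minus the D2 response, with sex as a blocking factor. Among the libraries with the Fosb guide (g11, called targeted), 13 were from D1-Cre mice (6 female, 7 male). The D1-Cre libraries with the non-targeted guide (gNT, called control) numbered 12 (8 female, 4 male). D2-Cre mice gave 12 targeted libraries (8 female, 4 male) and 10 control libraries (8 female, 2 male). All mice, controls included, received the same nuclease-dead Cas9 joined to CREB(S133D), a constitutively active mutant of the transcription factor CREB, from herpes simplex vectors that need Cre. They were on a C57BL/6 background, and tissue was taken 6 days after surgery. The sources used here give neither ages nor whether a library came from 1 mouse or a pool, so p-values measure the spread between libraries.

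Medium spiny neurons make up most of the nucleus accumbens and fall into a D1 class, with dopamine receptor Drd1, and a D2 class, with Drd2. Fosb encodes FosB and its truncated, long-lived product ΔFosB, which pair with Jun proteins and bind AP-1 sites. CREB binds cAMP response elements (CREs) and is a main route by which neuronal activity switches on immediate early genes, Fosb among them. The RNA came from whole dissected tissue, in which virus-carrying cells of one class are diluted by all other cells. Fewer cells of a type and less RNA per cell cannot be told apart in such samples.

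Total counts per library were between 12430387 and 59328186. A set of 5 libraries had more than 50% of their counts in just 10 genes: F_D2-targeted 17907 (95.5%) and 18432 (94.0%), F_D1-control 17457 (79.1%), F_D1-targeted 16754 (62.6%) and M_D1-control 18383 (56.2%). In the other 42 libraries that share was at most 29.5%. Library 17376, labelled female, held both Xist (33.4 CPM) and the Y-linked Ddx3y (35.2 CPM), whereas other female libraries had at most 7.56 CPM of Ddx3y. Across tested genes, its log2 CPM correlated at 0.991 with that of M_D1-targeted 19112, the highest of 1081 library pairs. Whether these libraries share material was not tested. Medium spiny neuron markers were present throughout, with Ppp1r1b (DARPP-32) between 183 and 507 CPM, Drd1 between 152 and 376 CPM and Drd2 between 25.5 and 109 CPM. Markers of cortical glutamatergic neurons were also present and uneven. The summed level of 14 such markers, none of them at 0 in a whole class, was between 107 and 935 CPM in D1 targeted, 112 and 691 CPM in D1 control, 79.2 and 314 CPM in D2 targeted and 111 and 1006 CPM in D2 control libraries. In 6 libraries it was over 450 CPM: F_D1-targeted 16565 and 16754, M_D1-targeted 18368, M_D1-control 18383, F_D2-control 17906 and M_D2-control 18386. Results were therefore also computed without the 5 libraries, without the 6 libraries, and with the cortical marker level as a term in the model. That level is the mean log2 CPM of the same markers in each library. Leaving out the 6 libraries leaves 1 male D2 control library, whose spread is then taken from the other groups.

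No gene passed the test of the D1 response minus the D2 response. Of 22042 genes tested with edgeR's quasi-likelihood test, 0 (0.0%) had a Benjamini-Hochberg adjusted p below 0.05, and the lowest adjusted p was 0.285, for Rnu2-10. At an unadjusted p below 0.05 there were 828 genes (3.76%), of which 518 (2.35% of the genes tested) had a difference above 0 and 310 (1.41%) a difference below 0. DESeq2 called 1 gene, Rnu2-10, with 865 genes at an unadjusted p below 0.05, and limma-voom with quality weights called 0, with 582. For most expressed genes these libraries limit the difference in whole tissue to less than 2-fold. They do not so limit the difference within virus-carrying cells, which other cells dilute. Of 17074 genes with a mean of at least 1 CPM (counts scaled to library size by TMM), 15552 (91.1%) had a 95% interval of the difference that lay wholly within 2-fold in either direction. The central bulk of these genes, from the 5th to the 95th percentile, had log2 differences between −0.27 and 0.34.

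Neither response passed on its own. In D1-Cre mice 0 genes (0.0%) had an adjusted p below 0.05 and 1830 (8.3%) an unadjusted one, of which 759 (3.44%) had a response above 0 and 1071 (4.86%) one below 0. In D2-Cre mice the numbers were 0 (0.0%) and 1163 (5.28%), of which 406 (1.84%) were above 0 and 757 (3.43%) below 0. DESeq2 called Rnu2-10 and Tmem35a lower in the D1 response and 0 genes in the D2 response. Among the genes at an unadjusted p below 0.05, 139 were common to both, which is 7.596% of the D1 genes and 11.95% of the D2 genes. Of these 139, 126 had the same sign in both Cre lines and 13 had opposite signs. The D1 and D2 arms share no library, controls included. Across all 22042 genes, which are not independent of each other, the D1 and D2 log2 responses had a Pearson correlation of 0.03 and a Spearman correlation of 0.21, and 13441 genes (61.0%) had the same sign. Among the 828 genes above, 804 (97.1%) had opposite signs in D1 and D2, against 39.0% of all genes tested. Selection by the difference itself favours such genes.

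**Figure D1:**
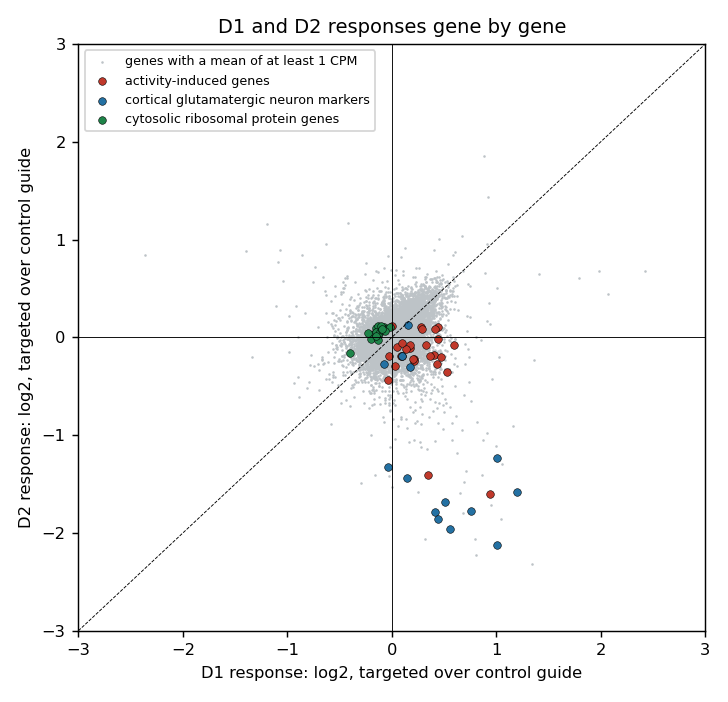
Each grey point is a gene with a mean of at least 1 CPM, placed by its D1 response (horizontal) and its D2 response (vertical), both log2 of targeted over control guide; 10 genes lie beyond the axes. Activity-induced genes (red) lie mostly right of and below the origin, ribosomal protein genes (green) left of and above it, and most cortical markers (blue) far below it.

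Fosb itself, the gene the guide was aimed at, was low in the tissue. Its gene (ENSMUSG00000003545.3) lies on the minus strand of mm10 at chr7:19302696-19310051, per the GENCODE M21 annotation. Fosb was at 4.08 to 11.97 CPM (median 7.35) in D1 targeted libraries, against 4.04 to 9.31 CPM (median 6.42) in D1 control libraries. It was at 4.49 to 14.0 CPM (median 5.76) in D2 targeted libraries, against 2.73 to 11.3 CPM (median 7.21) in D2 control libraries. The groups overlapped in both Cre lines. In D1-Cre mice 11 of 13 targeted libraries lay above the control median of their sex, and in D2-Cre mice 5 of 12 did. The value of 14.0 CPM belongs to library 17907 and rests on 13 counts. The 2 male D2 control libraries stood at 7.11 and 2.73 CPM, on either side of the male D2 targeted libraries at 5.04, 5.07, 6.27 and 5.71 CPM.

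The Fosb log2 response was 0.40 ± 0.14 (SE) in D1-Cre mice and −0.18 ± 0.16 in D2-Cre mice, a difference of 0.58 ± 0.21 (edgeR, unadjusted p = 0.00839, adjusted p = 1.0). An exact two-sided permutation test of log2 CPM, which shuffled the guide within sex and Cre line and weighted both sexes equally, gave a difference of 0.38 with p = 0.169. On that scale the D1 difference was 0.41 (p = 0.00363 by the same exact test) and the D2 difference 0.03 (p = 0.923). The D2 difference was −0.26 in females and 0.31 in males, and the D1 difference was 0.40 in females and 0.42 in males. The edgeR difference was 0.60 with the cortical marker level as a term, 0.60 without the 6 libraries high in cortical markers, and 0.60 without the 5 libraries dominated by 10 genes. Of the 10 genes beside Fosb on chromosome 7, 4 had a D1 minus D2 difference above 0, none was at an unadjusted p below 0.05, and the median was −0.05, against 0.01 over all genes. Ercc1, a DNA repair nuclease subunit and the neighbour of smallest p, had a difference of −0.14.

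**Figure D2:**
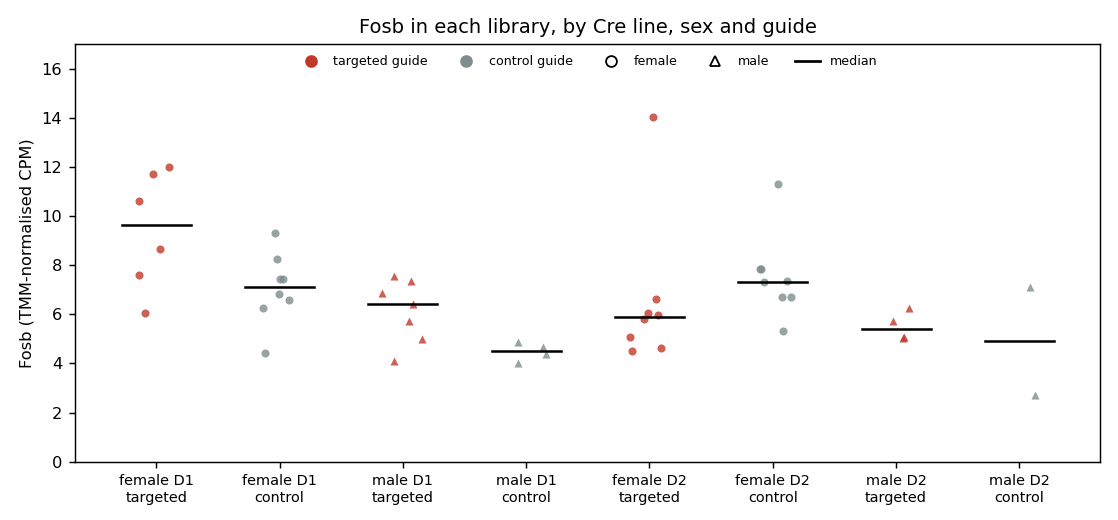
Fosb level (TMM-normalised CPM, vertical) in each of the 47 libraries, by sex, Cre line and guide, with the group median as a line. Targeted and control libraries overlap in each sex and Cre line, and the highest targeted values are 11.97 CPM in D1 females and 14.0 CPM in D2 females.

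Of the genes averaging 1 CPM or more that qualified for naming, those of smallest p with a higher D1 than D2 response included Vegfa, Egr4, Rnf165, Skil, Pxdn, Vipr1, Inhba, Gpr3 and Klf10. None of them passed the adjusted test, and each had an adjusted p of 1.0. For each of these 9 the D1 response was above 0 and the D2 response below 0. Their differences on the log2 scale were between 0.29 for Skil and 1.07 for Gpr3.

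Vegfa, which encodes vascular endothelial growth factor, was at 24.1 to 34.8 CPM (median 27.4) in D1 targeted libraries, against 20.9 to 30.0 CPM (median 22.6) in D1 controls. It was at 15.1 to 34.9 CPM (median 24.9) in D2 targeted libraries, against 24.8 to 30.9 CPM (median 27.0) in D2 controls. All 13 D1 targeted libraries lay above the control median of their sex, and 4 of 12 D2 targeted libraries did, although the ranges overlapped in both Cre lines. The Vegfa difference between the responses was 0.38 ± 0.11 (unadjusted p = 0.00103), made of 0.30 ± 0.08 in D1 and −0.08 ± 0.08 in D2. Egr4, a zinc-finger transcription factor of the immediate early class, was at 7.26 to 19.3 CPM (median 12.6) in D1 targeted libraries, against 4.38 to 14.2 CPM (median 10.5) in D1 controls. In D2-Cre mice Egr4 was at 5.56 to 13.1 CPM (median 9.23) in targeted libraries, against 4.29 to 18.4 CPM (median 10.8) in controls. Targeted libraries above the control median of their sex numbered 12 of 13 in D1 and 2 of 12 in D2, and the Egr4 difference was 0.70 ± 0.20 (unadjusted p = 0.00116).

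Inhba encodes the activin A subunit, an activity-regulated growth factor of neurons. It was at 3.71 to 13.8 CPM (median 6.54) in D1 targeted libraries, against 3.87 to 10.9 CPM (median 6.19) in D1 controls, and at 3.26 to 7.56 CPM (median 4.87) in D2 targeted libraries, against 4.65 to 9.26 CPM (median 7.19) in D2 controls. Its larger component was the D2 response, −0.54 ± 0.18, beside 0.26 ± 0.16 in D1, and 1 of 12 D2 targeted libraries lay above the control median of its sex. Skil, which encodes the SMAD corepressor SnoN, likewise had its larger component in D2, with −0.22 ± 0.06 beside 0.06 ± 0.06 in D1. Gpr3, a receptor that signals to adenylate cyclase without a ligand, had a difference of 1.07 ± 0.33 at a low level, between 0.644 and 2.91 CPM in D1 targeted and between 0.375 and 2.02 CPM in D1 control libraries. It was listed at 0 in 2 of 12 D2 targeted libraries, which are 17907 and 18432, the 2 with the fewest counts left for other genes. The remaining genes had differences of 0.91 (Rnf165, a ubiquitin ligase of BMP signalling), 0.60 (Vipr1, a receptor for vasoactive intestinal peptide), 0.50 (Klf10, a zinc-finger factor induced by TGF-β) and 0.43 (Pxdn, the matrix enzyme peroxidasin).

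With the cortical marker level as a term, and without the 6 libraries high in cortical markers, Vegfa was at 0.38 and 0.39, Egr4 at 0.61 and 0.58 and Inhba at 0.62 and 0.86. Rnf165 was at 0.45 and 0.53 in the same fits, and Gpr3 at 0.51 and 0.64.

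The promoter of Fosb is shown because CREB was directed to that gene, and those of Egr4 and Gpr3 because they held the most CRE cores among the genes above, a choice made after the motifs were counted. They are read from RefSeq on GRCm38.p6, 5′ to 3′ on the gene's strand, from 250 bases before the start to 50 after it. They lie at chr7:19309996-19310295, chr6:85513540-85513839 and chr4:133212487-133212786, all on the minus strand. Capitals mark the 5-base CRE core TGACG or the AP-1 motif TGANTCA, on either strand.
Fosb: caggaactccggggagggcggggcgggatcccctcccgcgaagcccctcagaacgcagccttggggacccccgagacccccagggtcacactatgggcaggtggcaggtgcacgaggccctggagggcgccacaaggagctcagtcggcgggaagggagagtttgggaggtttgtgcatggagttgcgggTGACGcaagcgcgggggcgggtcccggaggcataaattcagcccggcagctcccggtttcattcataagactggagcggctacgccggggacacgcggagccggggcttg
Egr4: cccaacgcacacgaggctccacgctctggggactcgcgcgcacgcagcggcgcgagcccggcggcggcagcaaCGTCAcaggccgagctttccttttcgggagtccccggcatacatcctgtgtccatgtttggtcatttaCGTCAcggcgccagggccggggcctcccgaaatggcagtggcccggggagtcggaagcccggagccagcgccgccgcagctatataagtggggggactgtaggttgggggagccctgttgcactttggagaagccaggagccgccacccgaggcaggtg
Gpr3: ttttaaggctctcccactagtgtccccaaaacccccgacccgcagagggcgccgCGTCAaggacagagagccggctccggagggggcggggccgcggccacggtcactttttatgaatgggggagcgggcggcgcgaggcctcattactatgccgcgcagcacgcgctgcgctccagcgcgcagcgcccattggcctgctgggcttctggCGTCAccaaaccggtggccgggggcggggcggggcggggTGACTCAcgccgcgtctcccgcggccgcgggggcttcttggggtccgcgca
Fosb held 1 CRE core, Egr4 held 2, and Gpr3 held 2 and 1 AP-1 motif. The full 8-base CRE TGACGTCA, which contains the core, was in none of them. Of 32851 mouse promoters of the same length, 20.8% held TGACG, 7.81% held TGANTCA and 1.79% held TGACGTCA. A promoter sequence was matched for 13 genes among Fosb, the genes above and the 10 genes of the opposite sign described next. TGACG was in at least 1 promoter of 4 of 6 genes with a higher D1 response (Egr4, Gpr3, Vegfa and Vipr1) and of 1 of 6 with a lower one (Igsf1). Vegfa and Igsf1 have several promoters, of which 1 each held it. Counted in the same way per gene, 23.0% of 27025 genes had TGACG in at least 1 promoter. A match describes the letters and does not show that CREB was bound.

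The 10 genes of smallest p with a lower D1 than D2 response were Rnu2-10, Irs4, Igsf1, Agt, Apoo-ps, Zfp92, Mrap2, Tmem35a, Fam19a4 and Gbx1. Again none passed the adjusted test with edgeR. In 9 of them the D1 response was below 0 and the D2 response above 0, and in Tmem35a both were below 0. The count of 9 was taken after the values were seen.

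Rnu2-10, a copy of the U2 small nuclear RNA of the spliceosome, had a difference of −6.51 ± 1.33 (adjusted p = 0.285). Its levels were carried by single libraries. In the other 42 libraries it was at most 4.95 CPM, whereas F_D1-control 16597 had 104 CPM, M_D1-control 17789 and 18068 had 126 and 82.4 CPM, F_D2-targeted 18167 had 57.5 CPM and M_D1-targeted 19507 had 12.2 CPM. U2 genes are near-identical copies, so the assignment of reads among them is uncertain, and the same holds for the pseudogene Apoo-ps (−1.59 ± 0.47). Irs4, an adaptor of insulin receptor signalling, was at 0.418 to 3.73 CPM (median 1.30) in D1 targeted libraries, against 0.394 to 16.0 CPM (median 1.77) in D1 controls. It was at 0.618 to 5.48 CPM (median 2.06) in D2 targeted libraries, against 0.259 to 3.80 CPM (median 1.09) in D2 controls, where 11 of 12 targeted libraries lay above the control median of their sex. The Irs4 difference was −2.36 ± 0.64 (unadjusted p = 0.000657), with −1.20 ± 0.45 in D1 and 1.16 ± 0.48 in D2. The highest Irs4 value, 16.0 CPM, belonged to F_D1-control 16585, the library that also held the D1 control maxima of Igsf1 (29.5 CPM), Agt (64.0 CPM), Gbx1 (7.41 CPM), Zfp92 (8.22 CPM) and Mrap2 (13.3 CPM).

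Igsf1, a membrane glycoprotein of the immunoglobulin family, had a difference of −1.70 ± 0.48, and Agt, the precursor of angiotensin, one of −2.27 ± 0.67. In D1-Cre mice 5 of 13 targeted libraries lay above the control median of their sex for Igsf1, 8 of 13 for Agt and 6 of 13 for Gbx1, although the fitted D1 responses were −0.86, −1.39 and −0.74. Without 16585 the D1 responses were −0.47 for Igsf1, −0.83 for Agt, −0.38 for Gbx1 and −0.71 for Irs4, and the differences were −1.28, −1.70, −1.08 and −1.83. Without it the number of genes below 0 at an unadjusted p below 0.05 was 203, and 404 were above 0. Gbx1, a homeobox factor, stood at −1.45 ± 0.48, Fam19a4, a secreted chemokine-like protein, at −0.96 ± 0.31 and Mrap2, a partner of melanocortin receptors, at −0.67 ± 0.21. Of the 10, Tmem35a was the most abundant and the most even. It encodes a chaperone of nicotinic receptors and was at 36.5 to 68.3 CPM (median 55.0) in D1 targeted libraries, against 49.3 to 81.0 CPM (median 69.5) in D1 controls. In D2-Cre mice it was at 54.4 to 76.4 CPM (median 62.4) in targeted libraries, against 56.6 to 76.9 CPM (median 64.7) in controls. Just 1 of 13 D1 targeted libraries lay above the control median of its sex. Its D1 response, −0.37 ± 0.07, had an adjusted p of 0.167 with edgeR, its D2 response was −0.04 ± 0.08, and the difference was −0.33 ± 0.11 (unadjusted p = 0.00344). With the cortical marker level as a term the differences were −0.33 for Tmem35a, −1.79 for Irs4, −1.29 for Igsf1 and −1.92 for Agt.

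**Figure D3:**
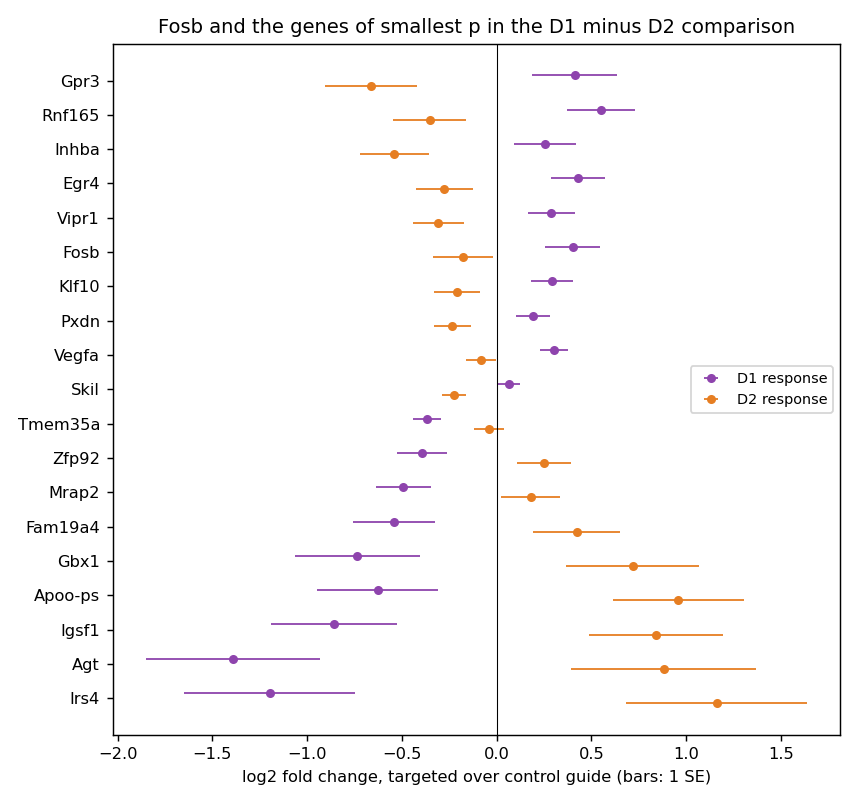
D1 response (purple) and D2 response (orange) of Fosb and of 18 genes of smallest p, as log2 of targeted over control guide with 1 SE; Rnu2-10 is left out because its difference of −6.51 would compress the axis. The responses of most of these genes point in opposite directions, from Gpr3 (0.41 and −0.66) at the top to Irs4 (−1.20 and 1.16) at the bottom.

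**Figure D4:**
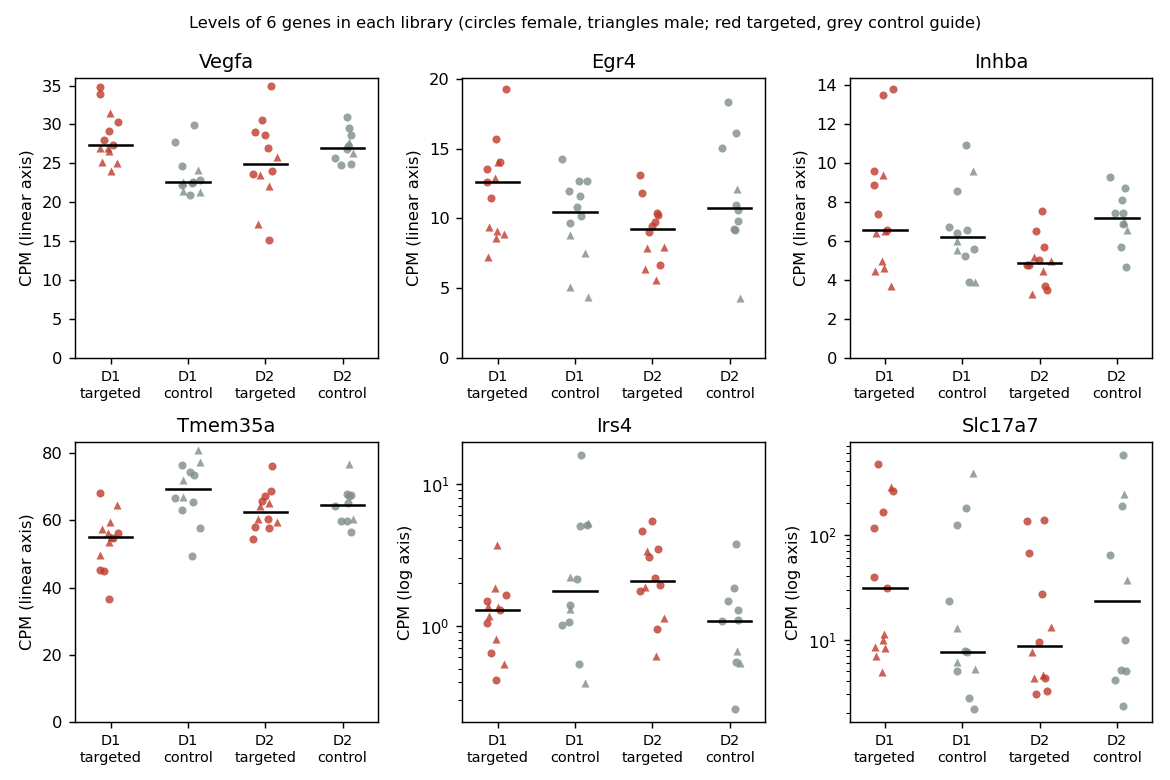
Levels (CPM) of Vegfa, Egr4, Inhba, Tmem35a, Irs4 and Slc17a7, a vesicular glutamate transporter of cortical neurons, in every library, by Cre line and guide, with medians as lines; Irs4 and Slc17a7 have log axes. Vegfa and Egr4 medians are higher in D1 targeted than in D1 control libraries and lower in D2 targeted than in D2 control libraries, while Slc17a7 spreads over more than 10-fold within each class.

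Of the lower 10, 4 lie on the X chromosome, namely Irs4, Igsf1, Zfp92 (a zinc-finger protein) and Tmem35a. X-linked genes made up 28 of the 310 genes with a difference below 0 at an unadjusted p below 0.05 (9.03%), 7 of the 518 with a difference above 0 (1.35%), and 699 of all genes tested (3.17%). This tally was made after the values were seen. Its share among the lower genes was 8.33% without library 17376, 6.19% with the cortical marker level as a term, 7.01% without the 6 libraries and 7.39% without 16585.

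Activity-induced genes are the immediate early transcription factors and effectors that synaptic activity and CREB switch on. Of 28 listed genes, all tested and Fosb among them, 27 had a higher D1 than D2 response, beside 51.5% of all genes. Of these, 12 were also at an unadjusted p below 0.05, beside 2.35% of all genes. The same 51.5% stands beside the counts above 0 of each list below. The median difference of the 28 activity-induced genes was 0.37, against 0.01 over all genes, with a median of 0.25 in D1 and −0.18 in D2. None passed the adjusted test. Besides Egr4, the members of smallest p were Egr3 (0.56 ± 0.18) and Egr1 (0.67 ± 0.23), zinc-finger factors of the same family. Egr1 was at 36.6 to 117 CPM (median 47.4) in D1 targeted libraries, against 21.4 to 61.4 CPM (median 41.2) in D1 controls, and at 25.3 to 72.3 CPM (median 36.4) in D2 targeted libraries, against 33.6 to 70.8 CPM (median 41.1) in D2 controls. The lowest member was Maff (−0.12) and the highest Nr4a2 (2.54), an orphan nuclear receptor. Fos and Jun, the founding AP-1 genes, had small differences of 0.17 and 0.15, and Arc, a synaptic effector, had 0.67. These 5 were chosen after their values were seen. The summed level of the 28 genes was between 742 and 1148 CPM in D1 targeted and 599 and 951 CPM in D1 control libraries, and between 633 and 853 CPM in D2 targeted and 775 and 932 CPM in D2 control libraries. The list median was 0.33 with the cortical marker level as a term and 0.39 without the 6 libraries high in cortical markers. It was 0.34 without the 5 libraries dominated by 10 genes. In these fits in turn, 27, 28 and 27 of 28 members were above 0, and 9, 8 and 11 were at an unadjusted p below 0.05. Without 16585, 10 were at that threshold.

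The lists of CREB family genes and of reported ΔFosB targets had smaller medians than the activity-induced genes. Of 16 CREB family members, coactivators and regulators, 11 had a difference above 0, the median was 0.05 and 0 were at an unadjusted p below 0.05, with Crebbp, the coactivator CBP, at 0.22 ± 0.14. Of 15 genes reported as targets of ΔFosB, 9 were above 0, the median was 0.03 and 0 were at an unadjusted p below 0.05. That median was 0.08 with the cortical term (10 of 15 above 0) and 0.11 without the 6 libraries (12 of 15). The target of smallest p was Cdk5r1, the activator p35 of the kinase Cdk5, at 0.24 ± 0.13. Of 16 core clock genes, 15 were above 0 with a median of 0.10, and Per2 (0.39 ± 0.17) and Per1 (0.33 ± 0.15), repressors of the clock loop that also respond to CREB, were at an unadjusted p below 0.05, beside 2.35% of all genes. No clock gene was at that threshold with the cortical term (10 of 16 above 0), without the 6 libraries or without the 5 libraries. Per1 is also counted among the activity-induced and the glucocorticoid-responsive genes. Of 14 glucocorticoid-responsive genes, 12 were above 0 with a median of 0.11, among them Ddit4, a stress-induced inhibitor of mTOR, at 0.28 ± 0.11.

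Mir212, which with Mir132 forms a CREB-responsive microRNA gene cluster, had a difference of 1.44 ± 0.44 (unadjusted p = 0.00201). It was chosen after its values were seen. Its level was very low, 0.103 to 0.598 CPM (median 0.347) in D1 targeted libraries, against 0.0568 to 0.329 CPM (median 0.177) in D1 controls, and 0 to 0.356 CPM (median 0.170) in D2 targeted libraries, against 0.116 to 0.703 CPM (median 0.220) in D2 controls. These values rest on 0 to 35 counts per library. Of the targeted libraries, 12 of 13 in D1 and 2 of 12 in D2 were above the control median of their sex. Mir132 was under the low-count filter. A ribosomal RNA-depleted total RNA library counts longer RNA across the hairpin, so the mature microRNAs were not measured. The mature sequences, from RefSeq on GRCm38.p6 with bases 2 to 8 (the seed) in capitals, are given because both share that seed.
mmu-miR-212-3p: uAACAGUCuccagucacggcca
mmu-miR-132-3p: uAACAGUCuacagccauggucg

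Several neuronal gene groups also had differences mostly above 0, and their medians depended on the cortical marker level. All 14 cortical glutamatergic markers were above 0, with a median of 2.20, and 5 were at an unadjusted p below 0.05, beside 2.35% of all genes. Among these 5 were Fezf2 (2.24 ± 0.86) and Neurod2 (3.13 ± 1.31), transcription factors of cortical neurons. The median was 0.42 in D1 and −1.51 in D2. Without the 6 libraries the median was 0.38, but those libraries were picked by the summed level of these same markers, which favours a smaller median. Neurod2 was at 0.197 to 24.0 CPM in D1 targeted and 0.0568 to 15.9 CPM in D1 control libraries, and at 0.0356 to 7.99 CPM in D2 targeted and 0.108 to 33.4 CPM in D2 control libraries.

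All 16 synaptic vesicle genes were above 0 with a median of 0.27, among them Unc13a, a vesicle priming factor, at 0.45 ± 0.18. With the cortical marker level as a term 7 of the 16 were above 0 and the median was −0.05. All 20 voltage-gated sodium and calcium channel genes were above 0 with a median of 0.26, and 6 were at an unadjusted p below 0.05, including the calcium channel subunits Cacna1d (0.37 ± 0.15) and Cacnb4 (0.34 ± 0.14), beside 2.35% of all genes. None of the 20 was at that threshold with the cortical term, where the median was 0.05, or without the 6 libraries, where it was 0.11, and 3 were without 16585. All 23 potassium channel genes were above 0 with a median of 0.26, and 5 were at an unadjusted p below 0.05, including Kcna1 (0.52 ± 0.20) and Kcnq3 (0.30 ± 0.14), subunits of voltage-gated channels. Their median was 0.17 with the cortical term, with 17 of 23 above 0 and 1 at that threshold, and 3 were there without 16585. Of 22 glutamate receptor subunits, 15 were above 0 with a median of 0.08, and 5 were at an unadjusted p below 0.05, including the NMDA receptor subunits Grin2b (0.50 ± 0.19) and Grin2a (0.57 ± 0.24). With the cortical term, and without the 6 libraries, no subunit above 0 was at that threshold and 2 below 0 were, with medians of 0.01 and 0.06.

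Of 20 postsynaptic scaffold and actin genes, 16 were above 0 with a median of 0.15. Homer1, a glutamate receptor scaffold that is also counted as activity-induced, differed by 0.40 ± 0.15, through a D2 response of −0.44 ± 0.11 beside −0.04 ± 0.11 in D1. Of 15 GABA receptor subunits, 11 were above 0 with a median of 0.04. The 2 at an unadjusted p below 0.05, Gabrg1 (−0.58 ± 0.23) and Gabre (−1.33 ± 0.52), were below 0, beside 1.41% of all genes. With the cortical term 6 of these 15 were above 0 and the median was −0.03. Beyond the cortical term, no cause was tested for these groups.

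Medium spiny neuron genes had list medians between 0.08 and 0.18 with all libraries. Of 12 D1 neuron markers, 9 had a difference above 0 with a median of 0.08 and none at an unadjusted p below 0.05. Of 10 D2 neuron markers, 7 were above 0 with a median of 0.18, and Grik3, a kainate receptor subunit, was at 0.77 ± 0.35. Drd2 itself had 0.26 ± 0.24. Of 18 genes shared by both classes, 15 were above 0 with a median of 0.14, led by the transcription factors Bcl11b (0.31 ± 0.18) and Foxp1 (0.30 ± 0.18). For D1, D2 and shared genes in turn, the medians were 0.17, 0.18 and 0.15 with the cortical term. Without the 6 libraries they were 0.17, 0.27 and 0.22. In females they were 0.04, 0.02 and 0.07, and in males 0.15, 0.30 and 0.30. Among 20 neuropeptides and opioid receptors, 13 were above 0 with a median of 0.04. The 2 at an unadjusted p below 0.05 were below 0, Nts (neurotensin, −0.90 ± 0.35) and Tac2 (neurokinin B, −0.77 ± 0.38), beside 1.41% of all genes. With the cortical term 7 of the 20 were above 0 and the median was −0.13, with 4 lower and 1 higher at that threshold.

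Markers of interneurons and of neighbouring regions had differences mostly below 0. Of 15 markers of cholinergic and GABAergic interneurons, 10 were below 0 with a median of −0.31, and 2 were at an unadjusted p below 0.05, beside 1.41% of all genes. These were Chodl (−0.95 ± 0.31), a marker of a sparse GABAergic class, and Lhx8 (−1.05 ± 0.39), a transcription factor of cholinergic neurons. The list median was −0.67 in females and 0.11 in males, where 9 of 15 were above 0. Of 10 tested markers of septum, pallidum and hypothalamus, 9 were below 0 with a median of −0.52, including Gbx1 and Prlr, the prolactin receptor (−1.85 ± 0.70). The median was −0.71 with the cortical term, −0.73 without the 6 libraries and −0.35 without 16585. The summed level of that list was between 61.8 and 141 CPM in D1 targeted and 77.3 and 186 CPM in D1 control libraries, and between 62.5 and 254 CPM in D2 targeted and 64.9 and 148 CPM in D2 control libraries. The part of tissue outside the nucleus accumbens in the results was not tested beyond these fits.

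Genes of protein synthesis and respiration had small differences in the opposite direction to the activity-induced genes. All 24 cytosolic ribosomal protein genes were below 0 with a median of −0.18, made of −0.12 in D1 and 0.07 in D2. Rpl10, a subunit of the large ribosome, was at −0.25 ± 0.12 and was the 1 member at an unadjusted p below 0.05, beside 1.41% of all genes. All 22 nuclear genes of oxidative phosphorylation were below 0 with a median of −0.12. There the D1 median was −0.19 and the D2 median −0.05. Sdhb (−0.19 ± 0.08) and Atp5g1 (−0.21 ± 0.10), subunits of succinate dehydrogenase and ATP synthase, were at an unadjusted p below 0.05, beside 1.41% of all genes. The 2 medians were −0.12 and −0.21 with the cortical term. Of 13 mitochondrially encoded transcripts, 11 were above 0 with a median of 0.18, but the median was −0.07 in females (5 of 13 above 0) and 0.72 in males (12 of 13). Of 18 heat shock chaperones, 14 were below 0 with a median of −0.13, among them the abundant Hspa8 (−0.24 ± 0.10) and Ahsa1, a cofactor of Hsp90 (−0.19 ± 0.09), while Dnajb5 was at 0.44 ± 0.17.

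Chromatin and RNA processing genes had medians near 0. Of 20 histone modifying and DNA methylation genes, 12 were above 0 with a median of 0.03, and Kmt2d (0.51 ± 0.19), Kmt2a (0.32 ± 0.14) and Tet3 (0.29 ± 0.14) were at an unadjusted p below 0.05, beside 2.35% of all genes, with 1 of 20 there under the cortical term and 1 without the 6 libraries. Kmt2d and Kmt2a are histone H3 lysine methyltransferases, and Tet3 oxidises methylcytosine. Of 22 splicing factor genes, 15 were above 0 with a median of 0.05 and 0 at an unadjusted p below 0.05.

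Immune and glial genes had differences mostly below 0, and their sign turned with the cortical term. Of 25 interferon-stimulated genes 23 were below 0 (median −0.24), and of 15 antigen presentation genes all were (median −0.19), as were 15 of 16 microglia and macrophage genes (median −0.14), with none at an unadjusted p below 0.05. With the cortical marker level as a term the 3 medians were 0.07, 0.15 and 0.12, and without the 6 libraries they were −0.06, 0.06 and 0.12. Of 14 astrocyte genes 12 were below 0 (median −0.11), and of 14 oligodendrocyte genes 11 were (median −0.09), and these medians were 0.04 and 0.12 with that term. Of 18 lymphocyte genes 7 were above 0 (median −0.07), but all 18 were with the cortical term (median 0.34) and without the 6 libraries (0.20). Their summed level was between 129 and 739 CPM in D1 targeted, 22.1 and 616 CPM in D1 control, 229 and 661 CPM in D2 targeted and 16.5 and 869 CPM in D2 control libraries. The lowest values, 22.1 and 16.5 CPM, belonged to M_D1-control 18383 and M_D2-control 18386, both among the 6 libraries high in cortical markers. Endothelial and mural genes (8 of 15 above 0, median 0.01), genes of choroid plexus, ependyma and meninges (7 of 14, 0.01) and proliferation genes (7 of 12, 0.02) lay near the centre with all libraries. With the cortical term endothelial and mural genes had a median of 0.16 (14 of 15 above 0) and proliferation genes one of 0.34 (12 of 12), and without the 6 libraries the medians were 0.08 and 0.23. All 5 erythrocyte genes were above 0 with a median of 0.13, which was −0.36 with the cortical term.

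**Figure D5:**
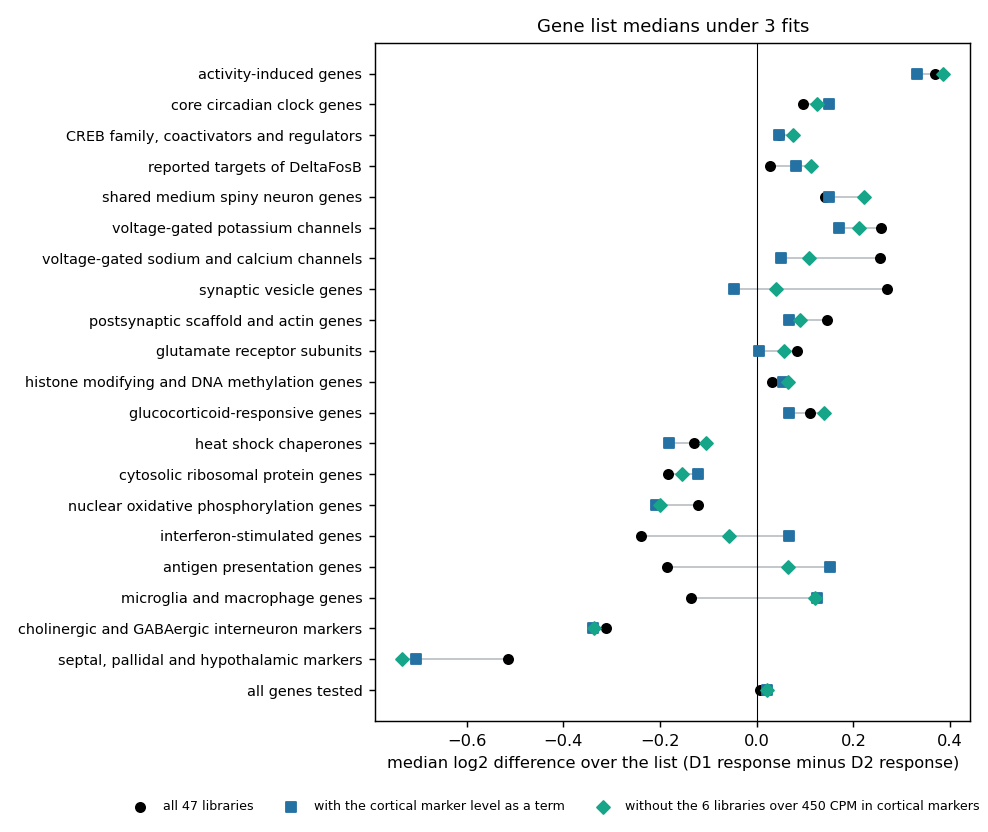
Median D1 minus D2 log2 difference of 20 gene lists and of all genes tested, with all 47 libraries (black), with the cortical marker level as a term (blue) and without the 6 libraries over 450 CPM in cortical markers (green). The activity-induced median stays between 0.33 and 0.39, the synaptic vesicle median is −0.05 with the cortical term, and the interferon, antigen presentation and microglia medians are above 0 with that term.

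The comparison was also made within each sex. In females 0 of 22042 genes (0.0%) had an adjusted p below 0.05 and 780 (3.54%) an unadjusted one, 489 of them (2.22%) above 0 and 291 (1.32%) below 0. In males the numbers were 0 (0.0%) and 509 (2.31%), with 159 (0.721%) above 0 and 350 (1.59%) below 0, and the difference between the sexes gave 0 (0.0%) and 287 (1.3%), with 201 (0.912%) above 0 and 86 (0.39%) below 0. DESeq2 called Rnu2-10 in females, and Ifi27 in males and between the sexes, while limma-voom called 0 in each. Of the 518 genes with a difference above 0 at an unadjusted p below 0.05, 509 were above 0 in both sexes, and of the 310 below 0, 284 were below 0 in both. Choosing genes by the difference pooled over both sexes favours a shared sign, and 60.6% of all genes tested had one. The activity-induced median was 0.43 in females and 0.41 in males, with 26 of 28 members above 0 in each. The cortical marker median was 2.91 in females and 1.25 in males. Medians of other lists had opposite signs: −0.33 in females and 0.13 in males for interferon-stimulated genes, −0.13 and 0.05 for heat shock chaperones, beside the interneuron markers and mitochondrial transcripts given above. These differences between the sexes were not tested.

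Ifi27, an interferon-stimulated gene, had the lowest adjusted p in males (0.0963, edgeR), with a difference of −1.67 in males and 0.08 in females. It was at 75.6 to 104 CPM in M_D1-targeted and 70.5 to 94.6 CPM in M_D1-control libraries, and at 80.2 to 137 CPM in the 4 M_D2-targeted libraries, against 34.1 and 37.1 CPM in the 2 M_D2-control libraries. The male D2 groups did not overlap for it. The male result rests on those 2 controls. The male comparison depended strongly on library 19099. Without it antigen presentation and interferon-stimulated genes were among those that passed, but a single control is left, so no count is given. The control that then remains is 18386, the library with 16.5 CPM of lymphocyte genes. The summed level of the 25 interferon-stimulated genes was 178 CPM in it, against 6300 CPM in 19099 and at least 1149 CPM in the D1 and D2 targeted and D1 control libraries. Its spread is taken from the other groups, and its part in the male result was not tested.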

How the data were processed

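Bulk RNA was sequenced from dissected nucleus accumbens as ribosomal RNA-depleted total RNA. The authors deposited raw counts per gene, one column per library. Per the submitters' processing notes, Trim Galore, HISAT2, SAMtools, Subread with featureCounts, DESeq2 1.27 and mm10 were used, while neither annotation release nor strand setting is stated there (not given in the sources used here). Of 88 columns, 1 matched no label and was left out, and 1 labelled library is not used here. Batch 2, with 9 libraries, was left out of the main fit.

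Symbols and positions came from GENCODE M21, and 55094 of 55487 identifiers matched. Counts were scaled by TMM, filtered with filterByExpr to 22042 genes and tested with edgeR 4.0.16 (quasi-likelihood, robust, R 4.3.3) on 47 libraries with 4 classes and sex. Levels are TMM-normalised CPM. P-values were adjusted by Benjamini-Hochberg over all genes tested, in 6 comparisons. Alternatives used limma 3.58.1, DESeq2 1.42.0 and sva 3.50.0, and tables were made with Python 3.11.15. The fit was tested on simulated data. The libraries' totals limit the precision for genes with few counts, above all in 17907 and 18432, whose effective library sizes were 926246 and 1056560.

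The genes named are Fosb, the 10 of smallest p in each direction among genes averaging 1 CPM or more with an established symbol (no Gm, Rik or numeric names), and up to 3 members of smallest p per list, with other choices marked in the text; immune, glial, vascular and mitochondrial lists are given mostly as counts, and some genes the rule names are not reported here. The comparison, its members and the 35 gene lists were chosen with earlier results of these data known, so no list is independent evidence of its direction. The alternatives with the cortical marker level, without 5 or 6 libraries and without 17376 or 16585 were chosen after seeing the data.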

Additional observations from a re-analysis of the deposited data

Results flagged for a closer look

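Levels of 10 genes were searched in 70 groups of 4 to 10 libraries for a library whose gap to its nearest neighbour was large beside the group's range (Dixon's test at 95%). A library stood apart in 11 groups. The test's rate of about 1 in 20 groups holds for normally distributed values. Whether these levels are so distributed was not tested, so no comparison with chance is drawn. Fosb stood apart at 14.0 CPM in F_D2-targeted 17907 and at 11.3 CPM in F_D2-control 17910. Vegfa was at 31.5 CPM in M_D1-targeted 18130. Irs4 was at 3.73 CPM in M_D1-targeted 18130, 16.0 CPM in F_D1-control 16585 and 3.80 CPM in F_D2-control 17909. Rnu2-10 was at 12.2 CPM in M_D1-targeted 19507, 104 CPM in F_D1-control 16597, 57.5 CPM in F_D2-targeted 18167 and 2.80 CPM in M_D2-targeted 18891. Mir212 was at 0.703 CPM in F_D2-control 18421.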

How the results depend on the processing

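No paired analysis was possible because the groups share no library numbers. The leading genes reported kept their direction in all 475 alternative values computed for them, 16585 left out included. They were chosen by their p in the main fit, and the alternatives reuse most of its libraries, so a kept direction was favoured beforehand. Fosb stayed between 0.50 and 0.70 in 25 alternatives, with unadjusted p between 0.000476 and 0.0730. The highest p came with all batch 1 libraries in 12 groups, where the difference was 0.53. At an adjusted p below 0.05, the D1 minus D2 difference gave 1 lower gene with DESeq2 and 1 with both batches and a batch term. The D1 response gave 2 higher genes with 3 surrogate variables, and 2 lower genes with DESeq2, 1 with limma-voom and 1 with surrogate variables. In females DESeq2 gave 1 lower gene. In males DESeq2, the fit without 17907 and 18432 and the fit without the 5 libraries dominated by 10 genes gave 1 lower gene each. Single libraries were left out in turn in the groups of up to 4 libraries (male D1 control, male D2 targeted and male D2 control), which gave 0 to 2 higher and 0 to 351 lower genes in males, and 0 to 79 higher genes for the difference between the sexes, where DESeq2 gave 1; the top of each range came without M_D2-control 19099. The Spearman correlation of the D1 and D2 responses was 0.34 over genes averaging 1 CPM or more and 0.13 without the 5 libraries. The cortical marker median was −0.062 with the cortical term and 0.38 without the 6 libraries. Both fits were set up from the levels of these same markers, so this fall is built in and is no separate result. The cause of the other changes was not tested. Depth limits genes under about 1 CPM most, and male D2 results rest on 2 controls.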
